A study of Mus musculus with 9 samples.

Results

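The genes described here are 35 genes of gut smooth muscle, among 27719 genes in the count table of the mouse colon. They were taken by gene symbol from a list of contractile, cytoskeletal, channel and regulator genes, and all 35 were found. The list was drawn up with earlier results of these data known, but no measured value entered its rule. Colon RNA came from 9 C57BL/6J mice, with 3 mice and 3 libraries in each of 3 groups. Control mice drank distilled water. DSS mice drank 2.5% dextran sodium sulfate, a polymer that injures the colon epithelium, for 7 days. DSS + EA mice drank the same DSS, and from 5 days into the modeling they received electroacupuncture (EA) at the ST36 point of both legs, in 5 daily sessions of 30 minutes at 0.2 mA and 2 Hz. Control and DSS mice were held in the frame for as long without EA, so that needle insertion without current has no group of its own. The labels give the tissue as colon without a layer, and the RNA therefore mixes muscle with mucosa.

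Smooth muscle of the gut wall shortens when calcium, entering through voltage-gated channels or released from stores, leads to the activation of myosin light chain kinase. The kinase phosphorylates the light chain of smooth muscle myosin, which then pulls on thin filaments of smooth muscle actin. Force passes from the filaments through dense bodies and desmin filaments to adhesion plaques in the membrane. Serum response factor and its cofactor myocardin switch on many of these genes through a promoter element called the CArG box.

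The genes that define the muscle cell are 6 of the 35 (*Acta2*, *Actg2*, *Myh11*, *Tagln*, *Cnn1* and *Des*), and each of these had at least 186 counts in each of the 9 libraries. Of the 35 genes, 32 passed the filter on low counts and were tested in a fit of all 12566 genes that passed it. Levels below are CPM, a gene's counts scaled to the same library total. Log2 fold changes, their standard errors (SE) and p-values adjusted over the 12566 genes are from edgeR's quasi-likelihood test, and a gene was called at an adjusted p under 0.05. The 2 comparisons with the DSS group share its 3 mice, so a low or high DSS level by itself moves both, in opposite directions.

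Some libraries stood apart. Leukocyte markers summed to 2807 CPM in DSS mouse 1 and to 21597 and 24741 CPM in DSS mice 2 and 3, beside 296 to 313 CPM in control and 1012 to 1334 CPM in DSS + EA mice, and epithelial markers to 11070, 4436 and 2424 CPM in DSS mice 1 to 3, beside 12203 to 13886 and 10484 to 11066 CPM. Pancreatic enzyme genes reached 20182 and 9144 CPM in DSS + EA mice 2 and 3, beside 42.3 to 955 CPM in the other 7. The part of these differences in the results was not tested, and the counts of called genes are also given without DSS mouse 1 and without DSS + EA mouse 2 or 3.

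With DSS, 10 of the 32 genes fell and 5 rose. Among all genes tested, 19.5% fell and 21.5% rose. The 10 that fell were *Cnn1*, *Synpo2*, *Des*, *Smtn*, *Synm*, *Myh11*, *Tagln*, *Actg2*, *Tpm1* and *Myl6*, by between 1.56-fold and 3.54-fold. The 5 that rose were *Mustn1*, *Pdlim7*, *Cald1*, *Csrp1* and *Flna*, by between 1.70-fold and 2.26-fold. The median log2 fold change of the 32 genes was -0.40, beside 0.02 over all genes tested. Fewer muscle cells in the sample and less RNA of these genes per cell cannot be told apart in RNA of whole tissue. The groups did not overlap for 16 of the 32 genes, beside 52% of all genes tested. The study's own rule for a differentially expressed gene asks for an unadjusted P under 0.01 and for a log2 fold change that passes 2.5 upwards or downwards. By this rule none of these genes was called in edgeR, beside 10.2% of all genes tested. At an unadjusted p under 0.05, 12 of the 32 were lower and 7 were higher, beside 24.0% and 25.8% of all genes. Without DSS mouse 1, 10 fell and 5 rose, beside 23.5% and 24.5% of all genes. The counts were 9 and 4 without DSS + EA mouse 2 or 3, beside 17.46% to 18.03% and 20.68% to 20.82%. Only 3 rose without any 1 of the control mice, beside 16.34% to 16.55%, or without DSS mouse 2, beside 18.4%. In a fit of control and DSS mice alone, 7 fell and 5 rose, beside 15.3% and 19.0% of all genes.

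In DSS + EA mice compared with DSS mice, 2 of the 32 genes were higher (*Cnn1* and *Smtn*) and 6 were lower (*Mustn1*, *Csrp1*, *Cald1*, *Pdlim7*, *Flna* and *Cacna1c*). Among all genes tested, 17.2% were higher and 18.3% lower. All 5 genes that had risen with DSS were among the 6 that were lower. Of the 10 that had fallen with DSS, 2 were higher and 8 were not called. The median of the 32 log2 fold changes was -0.07, beside -0.02 over all genes. The groups did not overlap for 13 of the 32, beside 47.4% of all genes, and the rule with a log2 fold change beyond 2.5 called 1 gene, *Cacna1c*, beside 6.41% of all genes. Without DSS mouse 1, 3 genes were higher and 6 lower, beside 22.9% and 22.6% of all genes. The counts were 2 and 6 without DSS + EA mouse 2 or 3, beside 10.52% to 12.75% and 12.11% to 13.36%. Without DSS mouse 3, 5 were higher (*Cnn1*, *Smtn*, *Des*, *Myh11* and *Lmod1*) and 6 lower, beside 14.1% and 16.1%.

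Against control mice, none of the 32 genes was called in DSS + EA mice by edgeR. Of all genes tested, 3% were higher and 0.637% were lower. At an unadjusted p under 0.05, 10 of the 32 were lower and 0 were higher, beside 6.34% and 10.6% of all genes. The log2 fold change was below 0 for 26 of the 32, beside 49.8% of all genes, with a median of -0.43 beside 0.00. The groups did not overlap for 16 of the 32, with DSS + EA mice lower in 15 of them, beside 32.2% of all genes in either direction. The smallest adjusted p was 0.0576, that of *Synm*. The rule with a log2 fold change beyond 2.5 called 0 of the 32, beside 2.08% of all genes. The count of 0 did not hold in each other analysis: DESeq2 called 4 genes lower (*Tpm1*, *Synm*, *Synpo2* and *Des*), beside 1.28% of all genes, and a fit of these 2 groups alone called 8, beside 3.17%. With DSS mouse 1 left out of the shared fit, the same 4 genes as in DESeq2 were called lower, beside 1.30%. Without DSS + EA mouse 2 or 3, 0 were, beside 0.238% and 0.104%.

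**Figure D1:**
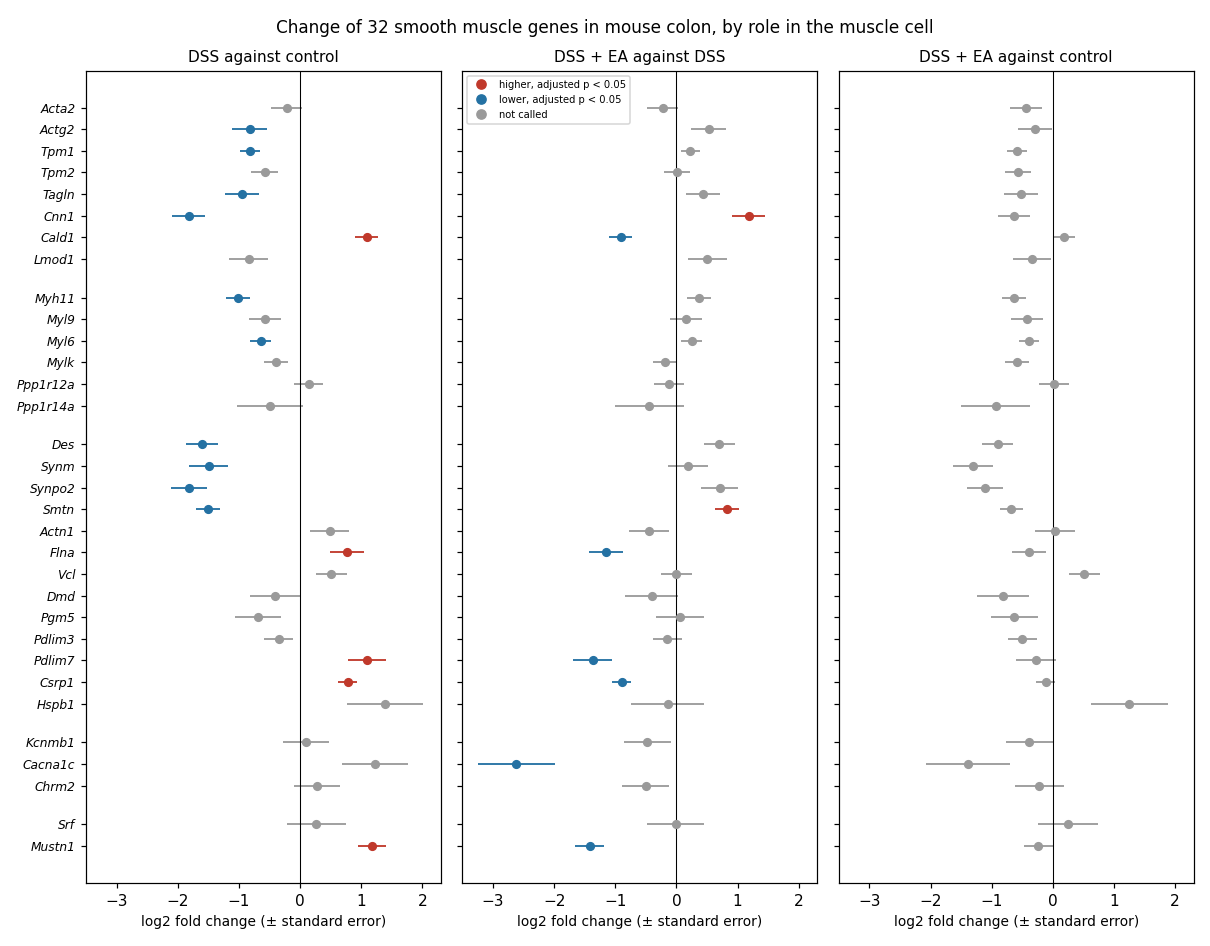
Log2 fold change (x axis, with its standard error as a bar) of the 32 genes tested, in rows grouped by role from thin filament at the top to regulators at the bottom, in the 3 comparisons. Red points were higher and blue points lower at an adjusted p under 0.05, and grey points were not called: 10 blue and 5 red points stand in the first panel, 6 and 2 in the second, and none in the third, where 26 of 32 points lie left of 0.

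Promoter sequence was available from RefSeq (GRCm38.p6, 250 bases before to 50 after the start of a gene) for 31 of the 35 genes; *Actg2*, *Myh11*, *Tagln* and *Myocd* have no entry. The 31 genes have 37 windows, and a gene was counted if any of its windows held a CArG box. This box, searched by its full 10-letter consensus, which reads the same on both strands, lay in a window of 5 of the 31 genes (16.1%) and of 488 of 27025 genes in all (1.81%). These stretches are shown because they carry the element on which serum response factor acts, with the box in capitals. The Acta2 stretch holds 2 boxes that each differ from the consensus by 1 inner letter, a kind of match found in 5 of the 31 genes and in 9.69% of all genes.
Myl9, chr2:156775283-156775332, plus strand: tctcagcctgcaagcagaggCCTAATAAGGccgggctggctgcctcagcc
Myl6, chr10:128493030-128493079, minus strand: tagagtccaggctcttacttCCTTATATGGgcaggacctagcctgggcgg
Vcl, chr14:20929151-20929200, plus strand: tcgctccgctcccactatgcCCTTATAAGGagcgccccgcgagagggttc
Srf, chr17:46556195-46556264, minus strand: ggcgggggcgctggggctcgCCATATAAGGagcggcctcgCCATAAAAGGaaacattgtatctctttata
Dmd, chrX:82948752-82948801, plus strand: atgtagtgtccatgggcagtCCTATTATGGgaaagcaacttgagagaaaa
Acta2, chr19:34255378-34255477, minus strand: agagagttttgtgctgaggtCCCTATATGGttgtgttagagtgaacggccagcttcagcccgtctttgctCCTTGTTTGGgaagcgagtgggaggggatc
Of the 5 genes with a full box, *Myl6* fell with DSS and the other 4 were not called in any comparison. *Myl6* and *Dmd* each have another window that held no full box. For *Myl6* that other window is the one nearer the annotated start of the gene. The 5 genes that rose with DSS had no full box in their windows. A match describes these letters only, and boxes elsewhere in the genes were not searched.

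Among thin filament genes, *Cnn1*, which encodes calponin, an actin-binding protein that restrains myosin, fell furthest (GRCm38, as for each position below, chr9:22099216-22109630, plus strand). Its level was 590, 510 and 502 CPM in control mice 1 to 3. In DSS mice 1 to 3 it was 191, 98.0 and 163 CPM, and in DSS + EA mice 1 to 3 it was 434, 267 and 328 CPM. All 3 DSS mice lay below all DSS + EA mice, which in turn lay below all control mice. With DSS it fell 3.54-fold (log2 fold change -1.82, SE 0.27, adjusted p = 0.000804). In DSS + EA mice it was 2.27-fold higher than in DSS mice (1.19, SE 0.27, adjusted p = 0.00861), and its log2 fold change against control was -0.64 (SE 0.27, adjusted p = 0.255).

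Of the 2 smooth muscle actins, *Actg2* was called lower with DSS and *Acta2* was not called. *Acta2*, the form of vascular and other smooth muscle (chr19:34241090-34255590, minus strand), stood at 563, 598 and 504 CPM in control, 469, 303 and 659 CPM in DSS and 402, 430 and 396 CPM in DSS + EA mice. The DSS mice spread around the control mice, with the lowest and the highest of the 9 values among them. The log2 fold change with DSS was -0.22 (SE 0.25, adjusted p = 0.524), or -0.52 without DSS mouse 3 and 0.04 without DSS mouse 2, neither called. All DSS + EA mice lay below all control mice in *Acta2*, with a log2 fold change of -0.44 that was not called (SE 0.25, adjusted p = 0.428). *Actg2*, the enteric form that prevails in gut muscle (chr6:83512905-83536265, minus strand), stood at 562, 517 and 462 CPM in control, 322, 162 and 388 CPM in DSS and 372, 422 and 466 CPM in DSS + EA mice. It fell 1.77-fold with DSS (-0.82, SE 0.29, adjusted p = 0.0423), and DSS + EA mice overlapped both other groups. The call of *Actg2* was lost in 9 of 16 alternative analyses, with adjusted p-values from 0.0518 to 0.104, among them those without any 1 of the control or DSS + EA mice, and without DSS mouse 2 the log2 fold change was -0.52. Over 1128 coding bases the 2 actins are 83.8% identical.

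Their ratio within a library does not depend on library scaling. Counts of *Actg2* per count of *Acta2* were 0.999, 0.864 and 0.917 in control mice, 0.686, 0.534 and 0.589 in DSS mice and 0.926, 0.981 and 1.18 in DSS + EA mice. The DSS mice lay below all 6 others, and the means were 0.927 ± 0.0676, 0.603 ± 0.0767 and 1.03 ± 0.132 (SD, n = 3 each). An exact two-sided permutation test of the log2 ratio gave p = 0.1 for DSS against control and for DSS + EA against DSS, the smallest p that 3 against 3 mice allow (0.15 after adjustment over 3 pairs), and p = 0.4 for DSS + EA against control (0.4 after adjustment).

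*Cald1*, encoding caldesmon, which like calponin holds back the thin filament in muscle and has a shorter form in other cells, moved the opposite way (chr6:34598500-34775473, plus strand). It stood at 160, 151 and 125 CPM in control mice and at 247, 341 and 338 CPM in DSS mice. DSS + EA mice had 157, 172 and 166 CPM, overlapping the control mice and below all DSS mice. It rose 2.13-fold with DSS (1.09, SE 0.19, adjusted p = 0.00165) and was 1.88-fold lower in DSS + EA than in DSS mice (-0.91, SE 0.19, adjusted p = 0.00569). Counts per gene do not separate the long and the short form. Counts of *Cald1* per count of *Cnn1*, a pair chosen after its values were seen, averaged 0.272 in control, 2.28 in DSS and 0.504 in DSS + EA mice.

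*Tagln*, encoding transgelin, an actin-binding protein and an early marker of the lineage, had 843, 871 and 616 CPM in control, 492, 231 and 476 CPM in DSS and 518, 550 and 553 CPM in DSS + EA mice. The DSS mice lay below all others, and *Tagln* fell 1.94-fold with DSS (-0.96, SE 0.28, adjusted p = 0.0211). Without control mouse 1 or 2 the adjusted p was 0.0614 or 0.0659, and in a fit of control and DSS mice alone it was 0.0600. *Tpm1*, a tropomyosin that lies along the actin filament, had 1227, 1153 and 1147 CPM in control, 700, 575 and 726 CPM in DSS and 788, 790 and 776 CPM in DSS + EA mice. All 6 mice that drank DSS lay below the control mice, and it fell 1.76-fold with DSS (-0.81, SE 0.16, adjusted p = 0.00361). Its partner *Tpm2* had a log2 fold change of -0.58 (SE 0.22, adjusted p = 0.0544), and *Lmod1*, leiomodin, which nucleates actin filaments, one of -0.84 (SE 0.32, adjusted p = 0.0581). Of these 4 genes, none was called between DSS + EA and DSS mice. *Tagln* overlaps *Pcsk7* on the other strand, which had 33 to 150 counts per library, against at least 1077 for *Tagln*.

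**Figure D2:**
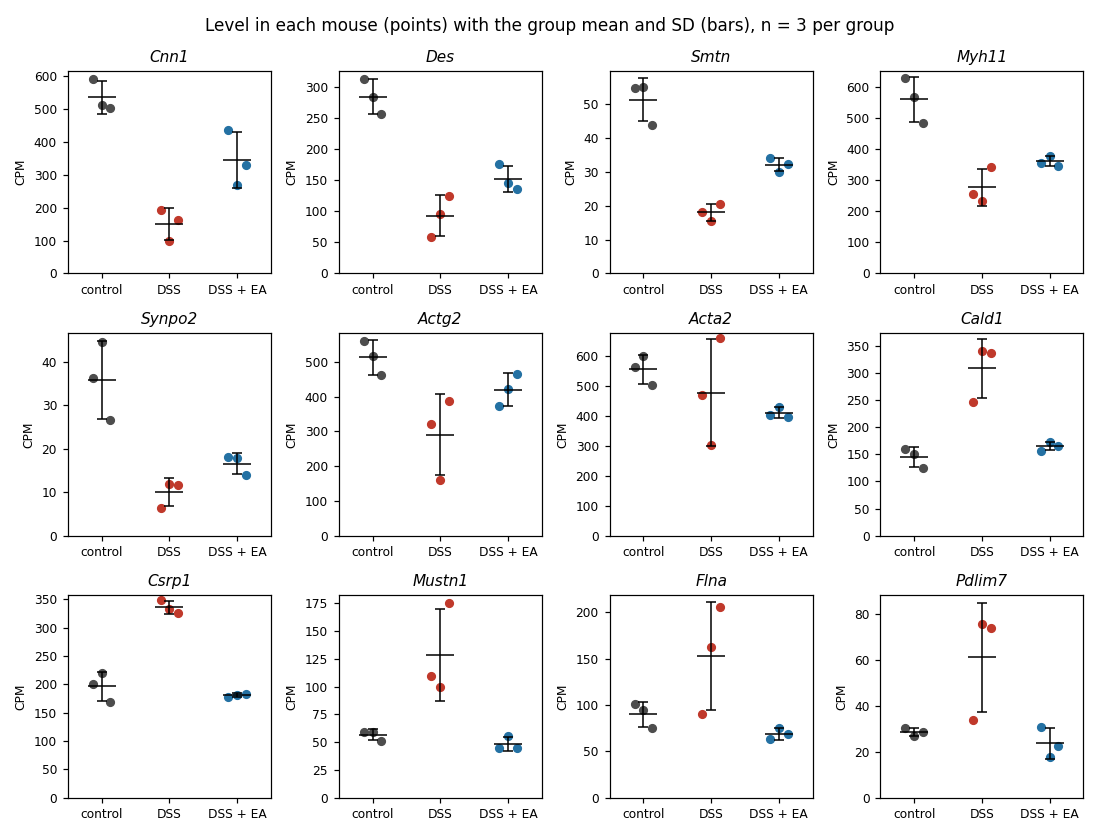
Level in CPM (y axis, from 0) of 12 of the genes in each mouse (points) with the mean and SD of each group (bars), n = 3 per group. The 3 DSS mice lie below both other groups in *Cnn1*, *Des*, *Smtn*, *Myh11* and *Synpo2* and above both in *Cald1*, *Csrp1*, *Mustn1* and *Pdlim7*.

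Of the myosin genes and their switches, the motor itself fell and the kinase was not called. *Myh11*, the smooth muscle myosin heavy chain (chr16:14194535-14291372, minus strand), had 629, 569 and 487 CPM in control mice, 256, 233 and 345 CPM in DSS mice and 357, 379 and 347 CPM in DSS + EA mice. It fell 2.02-fold with DSS (-1.01, SE 0.20, adjusted p = 0.00306), with a log2 fold change of 0.37 between DSS + EA and DSS mice (SE 0.19, adjusted p = 0.156). *Mylk*, the myosin light chain kinase, had 248, 228 and 223 CPM in control, 156, 145 and 229 CPM in DSS and 149, 161 and 157 CPM in DSS + EA mice. DSS mouse 3 overlapped the control mice, and the log2 fold change was -0.40 (SE 0.20, adjusted p = 0.132), or -0.63 without that mouse (adjusted p = 0.0185). *Myh11* counts per *Mylk* count, again a pair chosen after its values were seen, averaged 2.41 in control, 1.58 in DSS and 2.32 in DSS + EA mice. A further such ratio, of *Tpm1* to *Tpm2*, overlapped between the groups, at 2.47 to 3.12 in control, 1.95 to 2.77 in DSS and 2.69 to 2.91 in DSS + EA mice.

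*Myl6*, an essential light chain shared by smooth muscle and non-muscle myosin, had 5646, 5411 and 5123 CPM in control, 3888, 3253 and 3222 CPM in DSS and 4469, 4025 and 3852 CPM in DSS + EA mice. All control mice lay above the other 6, and it fell 1.56-fold with DSS (-0.64, SE 0.17, adjusted p = 0.0145). Without control mouse 1 the adjusted p was 0.0501, and in a fit of control and DSS mice alone it was 0.0600. *Myl6* held between 37.1% and 48.7% of all counts of the 35 genes. The regulatory light chain *Myl9*, which the kinase phosphorylates, had a log2 fold change of -0.57 (SE 0.27, adjusted p = 0.110), and without DSS mouse 3 it was -0.89 (adjusted p = 0.0169). The phosphatase target subunit *Ppp1r12a* and the phosphatase inhibitor *Ppp1r14a* had log2 fold changes of 0.14 and -0.49 with DSS, neither called. No gene of this group was called between DSS + EA and DSS mice.

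Among 13 genes of the intermediate filaments, dense bodies and membrane, 4 fell and 3 rose with DSS, beside 19.5% and 21.5% of all genes. Their median log2 fold change was -0.35. *Des*, desmin, the muscle intermediate filament (chr1:75360329-75368579, plus strand), had 314, 284 and 257 CPM in control, 59.4, 95.4 and 125 CPM in DSS and 176, 145 and 136 CPM in DSS + EA mice. The 3 groups did not overlap, and it fell 3.05-fold with DSS (-1.61, SE 0.26, adjusted p = 0.00120). In DSS + EA mice its log2 fold change against DSS was 0.70 (SE 0.26, adjusted p = 0.0556) and that against control was -0.90 (SE 0.26, adjusted p = 0.0924). Without DSS mouse 3 the former was 0.97 (adjusted p = 0.0184).

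*Synm*, encoding synemin, which builds filaments together with desmin, had 43.9, 38.6 and 21.0 CPM in control mice. DSS mice had 8.62, 15.7 and 12.0 CPM and DSS + EA mice 16.6, 11.9 and 13.2 CPM. All 6 mice that drank DSS lay below the 3 control mice, and the fall with DSS was 2.82-fold (-1.50, SE 0.32, adjusted p = 0.00526). Between DSS + EA and DSS mice its log2 fold change was 0.19 (SE 0.33, adjusted p = 0.685). *Synm* overlaps *Ttc23* on the other strand, which had 4 to 19 counts per library.

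*Synpo2*, synaptopodin 2, an actin-bundling protein of muscle, had 36.3, 44.5 and 26.7 CPM in control, 6.39, 12.0 and 11.7 CPM in DSS and 18.2, 17.8 and 13.9 CPM in DSS + EA mice. The 3 groups did not overlap, and it fell 3.53-fold with DSS (-1.82, SE 0.30, adjusted p = 0.00121), with 0.71 between DSS + EA and DSS mice (SE 0.30, adjusted p = 0.0894). *Smtn*, smoothelin, a protein of fully contractile smooth muscle, had 54.7, 55.1 and 43.8 CPM in control, 18.2, 15.4 and 20.4 CPM in DSS and 33.9, 30.0 and 32.2 CPM in DSS + EA mice. It fell 2.84-fold with DSS (-1.51, SE 0.20, adjusted p = 0.000396) and was 1.78-fold higher in DSS + EA than in DSS mice (0.83, SE 0.20, adjusted p = 0.0101).

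The 3 genes of the same group of 13 that rose with DSS were lower in DSS + EA than in DSS mice. *Csrp1*, a LIM protein that binds alpha-actinin and filamin, had 200.6, 219 and 170 CPM in control, 348, 333 and 326 CPM in DSS and 177, 182 and 183 CPM in DSS + EA mice. All DSS mice lay above all other mice, with a rise of 1.71-fold (0.78, SE 0.16, adjusted p = 0.00414) and a 1.86-fold lower level in DSS + EA than in DSS mice (-0.90, SE 0.16, adjusted p = 0.00293). *Pdlim7*, a PDZ and LIM protein of the actin cytoskeleton, had 30.5, 27.0 and 28.6 CPM in control, 33.9, 75.7 and 73.8 CPM in DSS and 30.9, 17.8 and 22.4 CPM in DSS + EA mice. DSS mouse 1 stood only just above the mice of both other groups, and the rise was 2.14-fold (1.10, SE 0.32, adjusted p = 0.0205). That call was lost without any 1 control mouse or without DSS mouse 2 or 3, with adjusted p-values from 0.0570 to 0.0726, while the 2.59-fold lower level in DSS + EA than in DSS mice (-1.37, SE 0.32, adjusted p = 0.00993) was kept.

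*Flna*, filamin A, which crosslinks actin in most cell types, had 101, 94.6 and 75.1 CPM in control, 90.4, 162 and 206 CPM in DSS and 62.9, 74.9 and 68.7 CPM in DSS + EA mice. DSS mouse 1 lay within the range of the control mice. The rise of 1.70-fold with DSS (0.77, SE 0.28, adjusted p = 0.0494) was lost in 12 of 16 alternative analyses, including those without any 1 mouse other than DSS mouse 1, and without DSS mouse 3 the log2 fold change was 0.49. Its 2.23-fold lower level in DSS + EA than in DSS mice (-1.16, SE 0.28, adjusted p = 0.0112) was kept in all 16. Of the other members of this group, *Actn1*, *Vcl*, *Dmd*, *Pgm5* and *Pdlim3*, which encode alpha-actinin, vinculin, dystrophin, aciculin and another LIM protein, had log2 fold changes between -0.69 and 0.51 with DSS and none was called. *Vcl* overlaps *Ap3m1* on the other strand, which had 121 to 186 counts per library. *Hspb1*, a small heat shock protein that binds actin, had 15.9, 12.2 and 16.4 CPM in control and 33.9, 50.6 and 32.1 CPM in DSS mice without overlap. In DSS + EA mice it had 78.4, 16.7 and 10.7 CPM, mouse 1 alone above all others, and it was not called (1.40 with DSS, SE 0.62, adjusted p = 0.0980). Without that 1 mouse it rose with DSS by 1.38 on the log2 scale (adjusted p = 0.00506) and was lower in DSS + EA than in DSS mice (-1.53, adjusted p = 0.0124).

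Channels and receptors were near the lower limit of the counts. *Cacna1c*, the pore of the L-type calcium channel through which contraction starts, had 13, 3 and 7 counts in control, 13, 43 and 9 counts in DSS and 3, 3 and 2 counts in DSS + EA mice. DSS mouse 2 stood far above the other 8 mice, and DSS + EA mice lay at or under a floor of 3 counts. The log2 fold change was -2.62 between DSS + EA and DSS mice (SE 0.63, adjusted p = 0.0106), or -1.95 without DSS mouse 2 (adjusted p = 0.0399), and 1.23 with DSS (SE 0.53, adjusted p = 0.0908). *Dcp1b* overlaps the channel gene on the other strand with 12 to 43 counts per library. *Kcnmb1*, the accessory subunit of the large calcium-activated potassium channel, and *Chrm2*, a muscarinic receptor for acetylcholine, had log2 fold changes of 0.09 and 0.28 with DSS and of -0.48 and -0.51 between DSS + EA and DSS mice, none called. *Kcnmb1* overlaps *Kcnip1* on the other strand, which had 0 to 13 counts per library.

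3 genes had too few counts to pass the filter. *Kcnma1*, the pore of the same potassium channel, had 11, 5 and 5 counts in control, 9, 29 and 9 in DSS and 5, 4 and 3 in DSS + EA mice. *Chrm3*, the receptor that drives most of the contraction by acetylcholine, had 12, 9 and 2 counts in control mice, 1 count in each DSS mouse and 1, 3 and 1 counts in DSS + EA mice. *Myocd*, the cofactor myocardin, had between 1 and 4 counts in each library. In a fit without the filter, of 22099 genes, *Chrm3* was lower with DSS (log2 fold change -2.95, SE 0.82, adjusted p = 0.0149), and *Kcnma1* was lower in DSS + EA than in DSS mice (-1.53, SE 0.52, adjusted p = 0.0462). *Chrm3* had 23 counts over the control mice and 3 over the DSS mice, so that its level per library total was 8.51 times as high in control mice, with an exact interval of 2.57 to 44.3 at 95% confidence that covers counting error only. Its other 2 comparisons, the other 2 of *Kcnma1* and all 3 of *Myocd* were not called in that fit. Over the 9 libraries, 3 counts corresponded to between 0.708 and 1.14 CPM on library totals without the TMM adjustment.

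Among regulators, *Srf* itself had log2 fold changes of 0.27, -0.01 and 0.25 in the 3 comparisons, with SEs of 0.47 to 0.49, and was not called. *Mustn1*, a small nuclear protein of muscle and tendon, had 59.5, 59.4 and 51.4 CPM in control mice. In DSS mice it had 109, 99.7 and 175 CPM and in DSS + EA mice 44.8, 55.2 and 44.4 CPM. All DSS mice lay above all others, with a rise of 2.26-fold (1.18, SE 0.24, adjusted p = 0.00366) and a 2.67-fold lower level in DSS + EA than in DSS mice (-1.42, SE 0.24, adjusted p = 0.00224).

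**Figure D3:**
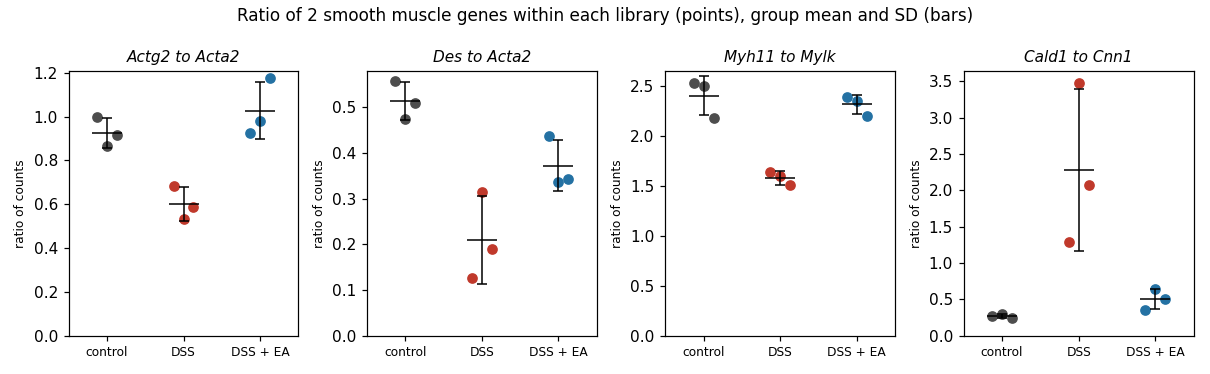
Ratio of the counts of 2 genes within each library (points; y axis from 0), with the mean and SD of each group (bars), n = 3 per group. The DSS mice lie below all others in the ratios of *Actg2* to *Acta2*, *Des* to *Acta2* and *Myh11* to *Mylk* and above all others in that of *Cald1* to *Cnn1*; the last 3 pairs were chosen after their values were seen.

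Summed over the 35 genes, the level was 11933 ± 848 CPM in control, 7945 ± 927 CPM in DSS and 8788 ± 363 CPM in DSS + EA mice (SD, n = 3 each). Without *Myl6*, the sums were 6540 ± 595, 4490 ± 912 and 4672 ± 54.0 CPM. On either sum the lowest control mouse lay above the highest mouse of both other groups, and the ranges of DSS and DSS + EA mice overlapped.

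Other genes that build or govern smooth muscle, from lists not chosen for how they moved here but drawn up with earlier results known, were counted in the same fit. Of 26 further structural genes, 24 were tested, 6 rose and 4 fell with DSS, and 2 were higher and 7 lower in DSS + EA than in DSS mice, with median log2 fold changes of -0.04 and -0.26. Of their 3 most abundant genes, *Fhl1*, a LIM protein of muscle, fell by 1.39 on the log2 scale with DSS (SE 0.23, adjusted p = 0.00137), and *Actn4* and *Ilk* were not called. Of 22 regulators of the muscle programme, 15 were tested, 6 rose with DSS and 7 were lower in DSS + EA than in DSS mice, with medians of 0.86 and -0.78. Their 3 most abundant genes, *Klf4*, *Klf5* and *Fhl2*, were not called. Of 13 non-muscle actomyosin genes, 4 rose with DSS, with medians of 0.58 and -0.33 in the 2 comparisons, and *Actg1*, *Myl12b* and *Actb* were not called. Over all genes tested the medians were 0.02 and -0.02. With DSS, 21.5% of all genes tested rose and 19.5% fell. In DSS + EA compared with DSS mice, 17.2% were higher and 18.3% lower.

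Markers of other cells moved with the same groups. The counts below stand beside the 21.5% of all genes tested that rose and the 19.5% that fell with DSS. The summed level of 9 fibroblast markers was 840 to 908 CPM in control, 4208 to 6898 CPM in DSS and 1715 to 1788 CPM in DSS + EA mice, and 8 of the 9 rose with DSS. Markers of pericytes and vascular mural cells, which share contractile genes with gut muscle, summed to 136 to 163, 315 to 360 and 139 to 178 CPM. Of the 7 tested, 5 rose with DSS. The most abundant of them, *Rgs5*, was not called with DSS (0.25, SE 0.18, adjusted p = 0.302). *Kcnj8* averaged 12.5 CPM in control, 118 CPM in DSS and 36.1 CPM in DSS + EA mice. Endothelial markers (72.0 to 87.4, 187 to 246 and 95.0 to 102 CPM, 8 of 9 rose) were high in the same 3 DSS mice. So were those of enteric neurons and glia (86.8 to 99.4, 151 to 170 and 61.5 to 77.1 CPM, 4 of 7 rose). The most abundant of the latter, *Uchl1*, was not called with DSS (0.42, SE 0.17, adjusted p = 0.0805). These 4 lists and the genes *Cald1*, *Csrp1*, *Mustn1*, *Pdlim7* and *Flna* had their highest group mean in the same DSS mice, and the part of these cells in the 5 results was not tested. Of the markers of interstitial cells of Cajal, the pacemakers beside the muscle, 2 of 5 tested fell with DSS, *Ano1* (-1.92, SE 0.26, adjusted p = 0.000489) and *Kit* (-1.92, SE 0.33, adjusted p = 0.00151). *Ano1* was also higher in DSS + EA than in DSS mice (1.08, SE 0.26, adjusted p = 0.0115). The most abundant marker of these cells, *Thbs4*, was not called with DSS (0.05, SE 0.41, adjusted p = 0.940). Their 7 markers summed to 114 to 179 CPM in control, 69.2 to 131 CPM in DSS and 120 to 156 CPM in DSS + EA mice, with overlap. The 13 striated muscle markers summed to 29.0 to 37.3 CPM in control, 9.58 to 15.7 CPM in DSS and 24.1 to 32.8 CPM in DSS + EA mice, with *Myh1*, *Myh4* and *Tnnc2* at 0 counts. Of the 2 tested, *Ckm* fell with DSS (-3.16, SE 0.62, adjusted p = 0.00312), and both *Ckm* (2.76, SE 0.62, adjusted p = 0.00821) and *Acta1* (1.67, SE 0.53, adjusted p = 0.0347) were higher in DSS + EA than in DSS mice. Of 4 adipocyte markers tested 4 fell with DSS, and of 3 mesothelial markers tested 1 rose. Genes with a longest transcript of at least 4000 bases held 12.5% to 14.9% of counts in DSS mice, 10.7% to 12.2% in control and 11.1% to 11.9% in DSS + EA mice. The part of these differences in the results was not tested.

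**Figure D4:**
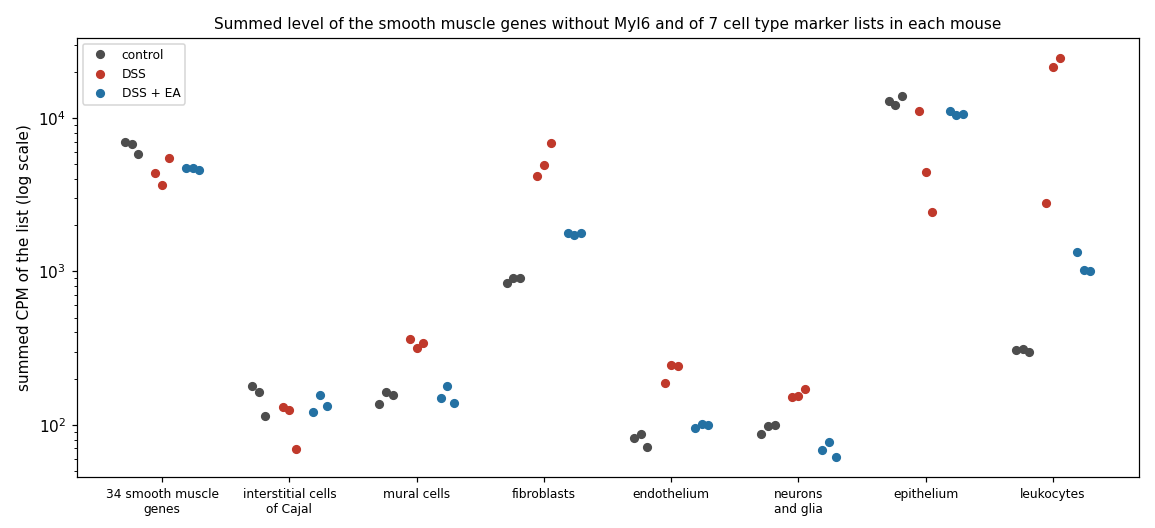
Summed level in CPM (log scale) of 34 smooth muscle genes, *Myl6* left out, and of 7 cell type marker lists in each mouse (points, coloured by group). The muscle genes lie highest in control mice, while fibroblast, mural, endothelial and neuronal and glial markers lie highest in DSS mice and leukocyte markers spread from 2807 to 24741 CPM among DSS mice.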

How the data were processed

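Groups (control, DSS, DSS + EA; 3 mice each) and mouse numbers were taken from the sample labels, with 1 colon library per mouse. Per the labels, a PromethION instrument read full-length cDNA made from total RNA after PCR. The values deposited by the authors are raw counts of reads on each gene. The submitters' processing notes name mm10; aligner, counting tool and use of strand are not given in the sources used here, so reads of overlapping genes may have been divided between them. Of 27733 lines, 14 without counts were skipped. Library totals were 2627695 to 4235576 counts. On these totals, 3 counts, the floor, correspond to 0.708 to 1.14 CPM. All other CPM values use the totals multiplied by each library's TMM factor, 0.939 to 1.10.

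Tests used edgeR 4.0.16 under R 4.3.3 (TMM, filterByExpr, prior count 0.125, quasi-likelihood F test, Benjamini-Hochberg adjustment over 12566 genes) in 1 fit of 9 libraries with group as the only term. The SE is the log2 fold change divided by the square root of F. p-values measure the spread between mice. Scripts were tested on simulated counts. The ratio of *Actg2* to *Acta2* was tested by exact permutation with SciPy 1.17.1. Positions and transcript lengths are from GENCODE M21 (GRCm38), read with Python 3.11.15 and pandas 2.3.3, and plots used matplotlib 3.10.9. Promoters are from RefSeq (GRCm38.p6).

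The genes, lists and tests were chosen with earlier results of these data known. All 35 genes are named, and of each other list the 3 most abundant genes, given only where a result turns on them in the case of cell type lists. *Mkl1* and *Mkl2* stand in the table for *Mrtfa* and *Mrtfb*. A further list and a few list members are not reported here. Alternatives were DESeq2 1.42.0, scaling by RLE or by library totals, filters set to none or to a mean count of 20, a fit of just 2 groups, the replicate number as a block, the study's rule (log2 fold change beyond 2.5, P under 0.01) and each mouse left out in turn. Isoforms, other tissues and the study's protein measurements were not analysed here.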

Additional observations from a re-analysis of the deposited data

How the results depend on the processing

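By the rule with a log2 fold change beyond 2.5, 0 rose and 0 fell with DSS, beside 10.2% of all genes in either direction. In DSS + EA compared with DSS mice, this rule called 0 higher and 1 lower, beside 6.41% in either direction. With each mouse left out in turn, 3 to 5 rose (3 without any 1 control mouse or DSS mouse 2) and 7 to 14 fell with DSS, and 2 to 5 were higher (5 without DSS mouse 3) and 6 to 7 lower in DSS + EA than in DSS mice. Between DSS + EA and control mice, 4 genes were lower with DESeq2, 1 without a filter, 1 with a mean of at least 20 counts and 8 with only the 2 groups compared. The shares of all genes were 1.28%, 0.403%, 0.61% and 3.17%. In that comparison, leaving out 1 mouse gave 0 to 4 lower (4 without DSS mouse 1) and 0 higher. Beside these counts, 0.104% to 1.30% of all genes were lower and 0.662% to 4.49% higher. Leaving out control mouse 1 left 7 genes that fell with DSS, and leaving out DSS mouse 3 gave 14, beside 14.4% and 16.0% of all genes. Fits with fewer mice share the spread of all groups, and the cause of these shifts was not tested.

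With DSS, the calls of *Myh11*, *Cnn1*, *Des*, *Smtn*, *Synm*, *Synpo2*, *Cald1*, *Tpm1*, *Csrp1* and *Mustn1* were kept in each of the 16 refits, as were those of *Cnn1*, *Smtn*, *Cald1*, *Flna*, *Pdlim7*, *Csrp1* and *Mustn1* between DSS + EA and DSS mice. The call of *Cacna1c* was kept in the 14 refits that tested it. It failed the filter at a mean of 20 counts and that of the fit of DSS + EA and DSS mice alone. Its highest counts, 43, 13 and 13, lay in DSS mice 2 and 1 and control mouse 1. Passing the filter thus rested mainly on the group where it is high, and these refits are no independent support for the call. Of 73 values not called, 20 changed sign in at least 1 refit, the largest of them that of *Hspb1* between DSS + EA and control mice (1.25). Without *Myl6*, an analysis added after the data were seen, the summed level was 6540, 4490 and 4672 CPM in control, DSS and DSS + EA mice. Leaving out 1 mouse gave group means of 11592 to 12408, 7576 to 8465 and 8592 to 8950 CPM for all 35 genes, and ratios of *Actg2* to *Acta2* of 0.891 to 0.958, 0.561 to 0.637 and 0.953 to 1.08.

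The replicate numbers did not pair the mice: deviations of same-numbered mice from their group means correlated at -0.160 to 0.105. With the replicate block, 4 genes rose and 10 fell with DSS, 2 were higher and 6 lower in DSS + EA than in DSS mice, and 0 were called against control. Of all genes in that fit, 18.8% rose and 17.4% fell with DSS. Between DSS + EA and DSS mice 15.2% were higher and 15.3% lower, and against control 2.49% and 0.406%. No scaling moved the median of all genes by over 0.1 on the log2 scale. Without the filter, 11 genes fell with DSS, *Chrm3* among them, and 7 were lower in DSS + EA than in DSS mice, *Kcnma1* among them. The shares of all genes were 12.7% and 11.7%. Depth limits *Cacna1c*, *Kcnma1*, *Chrm3* and *Myocd*, and 3 mice a group limit the exact tests.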
